A study of Mus musculus with 20 samples.

Results

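The genes described here are named as potassium, voltage-gated calcium, HCN and voltage-gated sodium channel genes of the mouse. They were chosen by symbol: protein-coding genes whose name starts with Kcn, Cacna or Cacnb, is Hcn with a number, or is Scn with a number and a or b, provided that their mean level over the 20 libraries reached 1 CPM (a count scaled to the size of its library). Of 129 such genes among the 53801 genes in the tables, 109 reached this floor, and all 109 passed the count filter that left 22181 genes for testing. Kcns1 lay just inside the floor at 1.03 CPM and Scn11a just outside it at 0.907 CPM, and the remaining genes below it were left out. The channel classes used below also follow the symbol and not a measured function of each gene.

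The RNA came from hypothalamus, and total RNA was depleted of ribosomal RNA before sequencing. Wild type animals (WT) were C57BL/6J, and the knockouts (KO) lacked both Magel2 and Ndn, neighbouring paternally expressed genes of the Prader-Willi region. Tissue was taken by day, 6 h after light on, or at night, 18 h after light on, which gives the groups WT_day, WT_night, KO_day and KO_night with 5 libraries each. Neither age nor sex is used here, and the labels do not say that the libraries came from separate animals. The p-values therefore measure the spread between these samples, which may be technical.

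Library totals ran from 32066289 to 48697647 counts, and the lowest count of any of the 109 genes in a library was 18. Ndn lay between 239 and 346 CPM in 9 WT libraries and between 0.248 and 1.01 CPM in the KO libraries, but at 31.0 CPM in the library labelled WT_day 3, where Magel2 was also low at 2.15 CPM (15.6 to 19.5 CPM in the other WT libraries). In 6 libraries (WT_night 1, KO_day 1 and 2, KO_night 1, 2 and 3) a second time label contradicts the title, and groups follow the title. The exception is KO_day 5, which was placed by that second label and is counted as agreeing. The title of WT_day 5 repeats the replicate number of WT_day 4. Neuronal markers were abundant in every library, with a sum of 1824 to 2086 CPM over the list, although Tubb3 was listed at 0 counts.

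Potassium channels let potassium leave or enter the cell and set how readily it fires. Voltage-gated Kv channels repolarise the action potential and are joined by silent subunits and auxiliary proteins, calcium- and sodium-activated channels add the after-potential, inward rectifiers (Kir) and tandem-pore channels (K2P) hold the resting potential, and HCN channels carry the pacemaker current. Voltage-gated calcium channels (Cav) couple firing to calcium entry through an alpha1 pore with alpha2delta and beta subunits, and voltage-gated sodium channels (Nav) carry the upstroke of the spike with an alpha pore and beta subunits. In the hypothalamus, and best known in its clock nucleus, potassium and calcium channels shape day and night firing rates, and glia take up potassium through Kir channels.

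Because many channel genes are very long, and because the deposited counts appear to cover whole gene spans with introns (the intronic share was not measured), levels are given as CPM per kb of span and, in places, per kb of exon. The median span of the 109 genes was 59.5 kb, against 17.6 kb for all genes tested and 22.0 kb for the 17622 genes with a mean of at least 1 CPM. Across the 109 genes, mean CPM was higher for longer spans (Spearman 0.693) and longer exons (0.696). These are descriptions over genes that share the same libraries. Kcnip4, which encodes a calcium-sensing partner of Kv4 channels, had the highest level before division by length, 1481 CPM over a span of 1135 kb, and came to 1.30 CPM per kb of span. Scn2b, which encodes a sodium channel beta subunit, had the highest level per kb of span, 14.6 CPM per kb over 12.3 kb. Its counts could not be told from those of Gm10684, a noncoding gene on the other strand that covers it.

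Among the 28 Kv pore-forming genes the level per kb of span ran from 0.0657 to 13 CPM per kb around a median of 0.782. The highest were Kcna3 (13) and Kcna2 (9.53), both Kv1 delayed rectifiers, but Kcna3 lies wholly inside the antisense gene Gm27008 and its counts are uncertain. Silent Kv subunits, which do not form channels alone, had a median of 0.162 CPM per kb over 8 genes, led by Kcnf1 (4.63) and Kcns2 (2.27). The 9 Kv auxiliary genes had a median of 0.663 CPM per kb, with the small regulatory subunit Kcne1l at 4.32. Calcium- and sodium-activated potassium channels had a median of 0.213 CPM per kb over 10 genes, led by the sodium-activated Kcnt1 (1.12) and the large-conductance calcium-activated Kcnma1 (0.464).

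Inward rectifiers had a median of 0.530 CPM per kb over 13 genes. Kcnj9 (4.75), a G protein-gated subunit known as GIRK3, and Kcnj10 (3.30), the glial channel Kir4.1, led them. The 9 K2P leak channels had a median of 0.230 CPM per kb with Kcnk1 at 1.02, and the 4 HCN genes 0.731 with Hcn2 at 2.52. The pores of the calcium channels had a median of 0.456 CPM per kb over 9 genes, led by the N-type Cacna1b (1.01) and the T-type Cacna1g (0.821). Their alpha2delta subunits had a median of 0.395 and their beta subunits 1.1, led by Cacna2d1 (0.811) and Cacnb3 (2.53). Among 7 sodium channel pores the median was 0.695 CPM per kb, with Scn2a highest at 2.61 and Scn3a at 1.33. The 4 sodium channel beta genes had the highest class median, 4.38 CPM per kb, and also the highest per kb of exon, 22.3 CPM per kb.

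**Figure D1:**
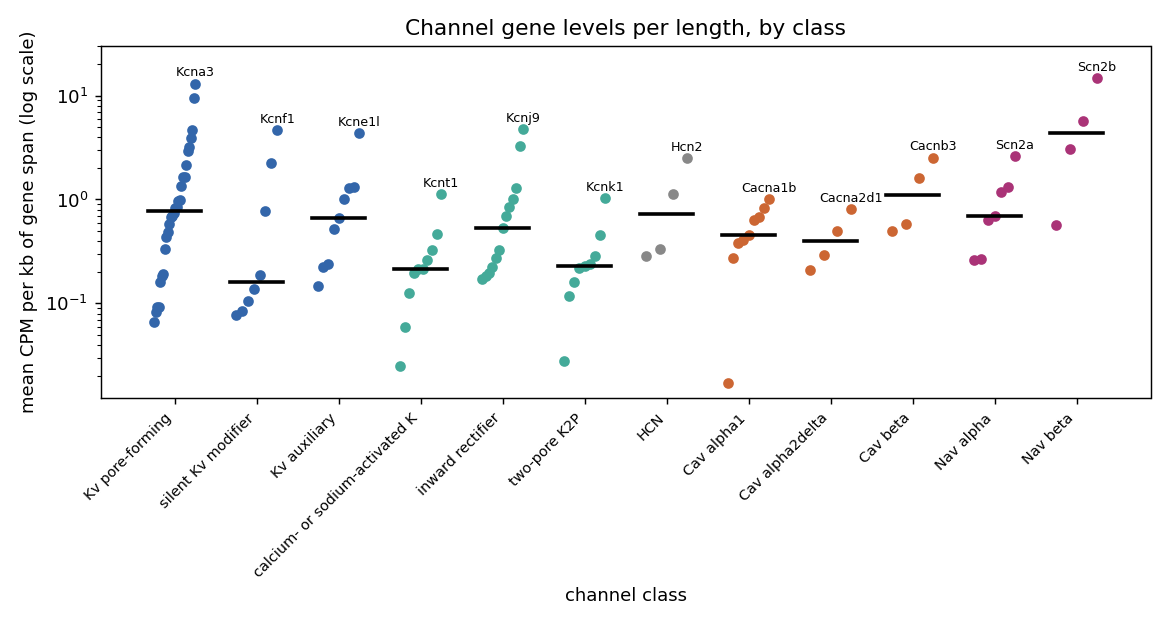
Mean CPM per kb of gene span over the 20 libraries, on a log axis, for each of the 109 channel genes (points) by class, with the class median as a bar and the highest gene of each class named. The sodium channel beta genes have the highest median, 4.38 CPM per kb, and the silent Kv genes the lowest, 0.162.

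The order of classes depended on the length used. Per kb of exon the calcium channel alpha2delta genes had a median of 13.9 CPM per kb, the second of the 12 classes, while per kb of span they stood at 0.395. Kcnip4 was far above all others per kb of exon at 408 CPM per kb, followed by the Kv4 pore gene Kcnd2 at 164, and these genes span 1135 and 514 kb.

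The comparison of KO with WT at night asks whether the loss of Magel2 and Ndn goes with other channel levels in the dark phase. At night 9 channel genes rose and 25 fell in KO (edgeR quasi-likelihood test, Benjamini-Hochberg adjusted p under 0.05), which is 31.2% of the 109. Over all genes tested 11.9% passed, 5.18% higher and 6.77% lower, and of the genes with a mean of at least 1 CPM 14.4% passed. With library totals in place of TMM scaling 11 rose and 7 fell (share of all genes not given). The genes that rose spanned up to 116 kb (Cacna2d4), and those that fell were, with 1 exception (Kcnj13), longer than 100 kb. The median log2 change of the 109 genes was 0.00, and the 75 genes that did not pass ran from -0.27 to 0.45, with 40 of them within 0.1 of 0. In bulk tissue, fewer cells of a type and less RNA per cell cannot be told apart.

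Length ordered these changes in the channel genes and in the other genes. All 20 channel genes of at least 300 kb were lower in KO at night and 18 of them fell, with a median log2 change of -0.31. Among all 586 genes of that length with at least 1 CPM, 570 were lower, 63.3% fell and the median was -0.27. Of the 22 channel genes of 100 to 300 kb, 6 fell and 1 rose, beside 23.7% and 0.563% of all genes of that length. In the range from 10 to 30 kb 22 of 24 channel genes were higher and 4 rose. Of all 5167 genes of that length with at least 1 CPM, 3422 were higher and 7.78% rose. Of 27 channel genes of 30 to 100 kb 2 rose and none fell, beside 3.28% and 7.58% of all genes. Under 10 kb 11 of 16 channel genes were higher, 2 rose and 1 fell. Of all 5226 genes of that length with at least 1 CPM, 3985 were higher, 10.8% rose and 1.72% fell. Across the 109 genes the Spearman correlation of the log2 change with span was -0.70, against -0.335 across 22149 tested genes with a known span.

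The same ordering was seen in single libraries. Relative to the mean of all libraries, the median channel gene of at least 100 kb stood 0.34 log2 units higher in WT_night 3 and 0.16 higher in WT_night 1, and lower by -0.27 in KO_night 2 and by -0.21 in KO_night 3. In these libraries the 40 channel genes under 30 kb stood on the other side of the mean. The genes with at least 1 CPM showed the same contrast between lengths, with long genes above short ones by 0.32 in WT_night 3 and below them by -0.26 in KO_night 2. A second fit therefore removed from each library the trend of counts with gene span, estimated over all genes. What makes long and short genes differ between libraries was not tested.

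**Figure D2:**
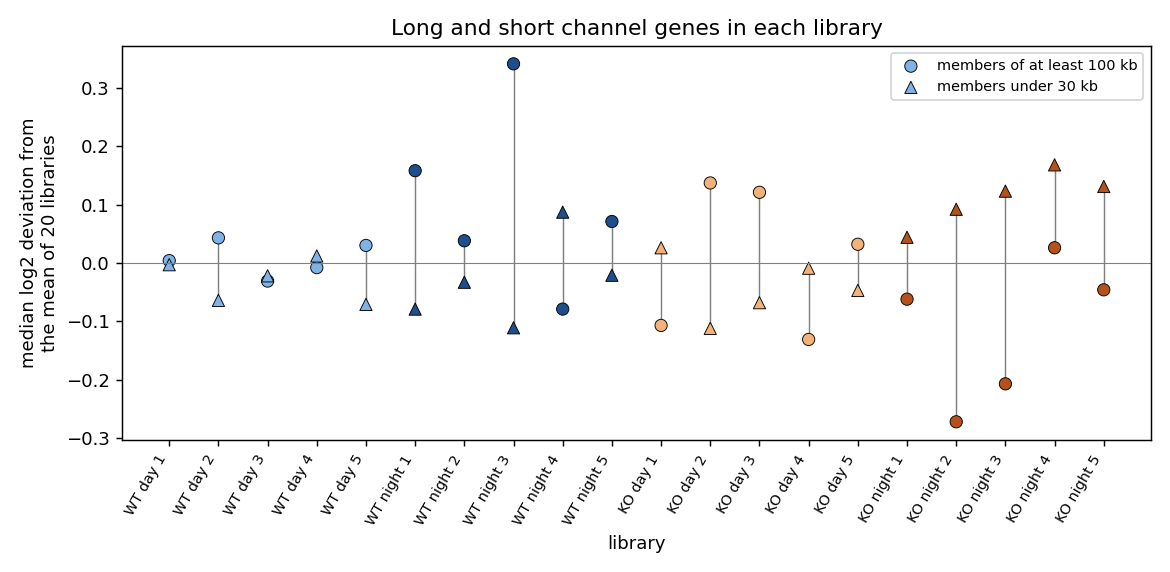
Median log2 deviation from the mean of the 20 libraries (y axis), per library (x axis, coloured by group), for the 42 channel genes of at least 100 kb (circles) and the 40 under 30 kb (triangles). The circles are highest in WT_night 3 (0.34) and lowest in KO_night 2 (-0.27), and the triangles lie opposite to the circles in most libraries.

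With the length trend removed, 12 channel genes rose and 2 fell at night, where 3.06% of all genes rose and 2.24% fell. The median change of the channel genes of at least 300 kb was then -0.04, and 1 of these 20 fell. Across the 109 genes the Spearman correlation of the change with span was then -0.273, against 0.031 over all genes, so an order by length remained among the channel genes. As tested, 34 channel genes passed, but 2 passed without WT_night 3, 4 without WT_night 1 or without KO_night 2, and 5 without KO_night 3, whereas 46 passed without WT_night 4 and 32 without WT_day 3. How many of all genes passed in each of these fits is not given. No channel gene passed at night when WT_night 1, 2 and 3 were left out together, when only the 14 libraries with agreeing time labels were used, or when the second time label set the groups, and the same held in each of these with the length trend removed. The first choice left only WT_night 4 and 5 in their group, and the second only KO_night 4 and 5 in theirs. With so few libraries, a missing call under the first or second choice does not show a missing change. The third choice kept all 20 libraries, and why no channel gene passed there was not tested.

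**Figure D3:**
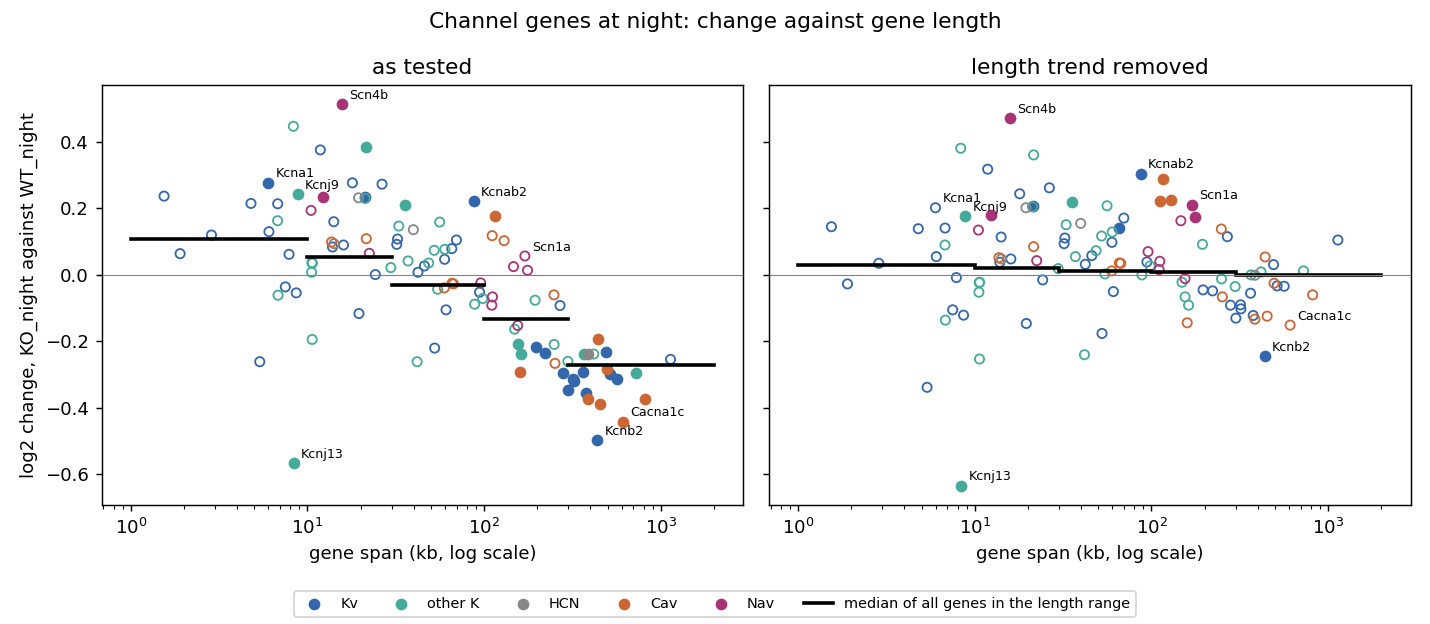
Log2 change of KO_night against WT_night (y axis) against gene span in kb (x axis, log scale) for the 109 channel genes, as tested (left) and with the length trend removed (right). Filled points passed at an adjusted p under 0.05, open points did not, and bars are medians of all genes with at least 1 CPM in each length range, which run from 0.11 to -0.27 on the left.

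Kv channels made up 13 of the night calls. Kcna1, the Kv1.1 delayed rectifier, was at 25.9, 26.9, 25.5, 29.5 and 25.2 CPM in WT_night 1 to 5 and at 28.1, 32.1, 34.9, 32.6 and 33.5 CPM in KO_night 1 to 5. WT_night 4 lay above KO_night 1 and the other libraries did not overlap. Kcna1 rose by a log2 change of 0.28 ± 0.0676 (SE, adjusted p = 0.0193), and with the length trend removed the change was 0.20 (adjusted p = 0.0652). Kcnc4, a fast Kv3 channel, rose by 0.23 ± 0.0632 (adjusted p = 0.0256) from 33.5 ± 2.01 to 39.4 ± 3.15 CPM (SD, n = 5), and passed in both fits.

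Kcnb2, which encodes the Kv2.2 delayed rectifier and spans 436 kb (chr1:15287254-15723750, GRCm38), was the Kv gene that fell most. It was at 389, 366, 448, 299 and 351 CPM in WT_night 1 to 5 and at 263, 228, 223, 309 and 290.4 CPM in KO_night 1 to 5. WT_night 4 lay below KO_night 4, and the other WT_night libraries lay above all KO_night libraries. The log2 change was -0.50 ± 0.105 (adjusted p = 0.0138) as tested and -0.25 ± 0.0511 (adjusted p = 0.0151) with the length trend removed. Without WT_night 3 it was -0.42 (adjusted p = 0.0543), and without each other library in turn it passed.

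A further 10 Kv genes fell, all over 100 kb, and they did not pass with the length trend removed. The M-current genes Kcnq3 and Kcnq5 fell by 0.35 and 0.31 on the log2 scale (adjusted p = 0.0241 and 0.0329), and stood at -0.13 and -0.03 with the trend removed. Kcnd2, the A-type Kv4.2 channel, fell by 0.30 (adjusted p = 0.0258) and stood at -0.03 with the trend removed. Kcnh5, an ether-a-go-go channel, fell by 0.30 (adjusted p = 0.018), and the fast Kv3.2 gene Kcnc2 fell by 0.22 (adjusted p = 0.031), with -0.09 and -0.05 after removal. Kcnq1 fell by 0.32 (adjusted p = 0.0267), but its counts could not be told from those of Kcnq1ot1, an antisense RNA that starts within it: the ratio of their counts was 0.987 to 1.02 in every library, and 121 of the 4093 exon bases of Kcnq1 lie inside Kcnq1ot1.

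The 8 silent Kv genes did not pass at night in the edgeR test, with changes of -0.11 to 0.38 and 2 of them at an unadjusted p under 0.05. Of the 9 auxiliary genes 1 rose and 1 fell. Kcnab2, whose product is a cytoplasmic beta subunit of Kv1 channels, was at 76.3, 84.0, 81.5, 93.8 and 83.6 CPM in WT_night and at 98.5, 98.3, 99.1, 102 and 90.8 CPM in KO_night. WT_night 4 lay above KO_night 5, and the remaining libraries did not overlap. It rose by 0.22 ± 0.0566 (adjusted p = 0.0217) as tested and by 0.30 ± 0.0662 (adjusted p = 0.0179) with the length trend removed. Kcnip1, which encodes another Kv4 partner, fell by 0.29 (adjusted p = 0.0394), and stood at -0.06 with the trend removed.

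Of the 10 calcium- and sodium-activated potassium channel genes 8 were lower at night and 3 fell. The large-conductance pore Kcnma1 (725 kb) fell by 0.30 on the log2 scale (adjusted p = 0.0425), the sodium-activated Kcnt2 by 0.24 (adjusted p = 0.0342) and the small-conductance SK3 gene Kcnn3 by 0.21 (adjusted p = 0.042). They stood at 0.01, 0.00 and -0.07 with the length trend removed and none passed.

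Of the 13 inward rectifier genes 2 rose and 2 fell at night. Kcnj9 (8.82 kb) was at 38.4, 39.7, 36.4, 42.5 and 40.1 CPM in WT_night 1 to 5 and at 43.1, 48.4, 50.3, 48.9 and 42.5 CPM in KO_night 1 to 5. The highest WT_night and the lowest KO_night library met at 42.5 CPM. Kcnj9 rose by 0.24 ± 0.0486 (adjusted p = 0.0112) and by 0.18 ± 0.0426 (adjusted p = 0.0257) with the length trend removed, and passed as tested without each single library in turn. Kcnj4, the Kir2.3 channel, rose by 0.39 ± 0.119 (adjusted p = 0.0386) from 3.73 ± 0.219 to 4.86 ± 0.741 CPM (SD, n = 5), but had an adjusted p of 0.0699 with the trend removed.

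Kcnj13 encodes Kir7.1, a channel known from choroid plexus and retinal pigment epithelium. It was at 7.94, 6.66, 7.20, 6.78 and 6.46 CPM in WT_night 1 to 5 and at 4.87, 3.57, 4.39, 5.86 and 4.99 CPM in KO_night 1 to 5, so all WT_night libraries lay above all KO_night libraries. It fell by 0.57 ± 0.117 on the log2 scale (adjusted p = 0.0127), and by 0.63 ± 0.121 (adjusted p = 0.011) with the length trend removed, and passed as tested without each single library. Kcnj13 lies inside Gigyf2 on the other strand, and the counts do not separate strands. Gigyf2 stood at 121 CPM beside 5.84 CPM for Kcnj13, and had a log2 change of -0.07 (adjusted p = 0.252). Of 5 choroid plexus markers 4 were lower in KO at night and none passed, and their summed level was 9.84 to 13.4 CPM in WT_night and 9.09 to 11.8 CPM in KO_night, and their part in the change of Kcnj13 was not tested. Kcnj3, the G protein-gated GIRK1 subunit, fell by 0.24 (adjusted p = 0.0216) over 162 kb, and stood at -0.09 with the trend removed.

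Kcnk1, a K2P leak channel known as TWIK1, was at 34.9, 34.7, 31.4, 36.2 and 31.7 CPM in WT_night 1 to 5 and at 37.2, 41.4, 40.4, 36.6 and 39.7 CPM in KO_night 1 to 5. All KO_night libraries lay above all WT_night libraries. It rose by 0.21 ± 0.0581 (adjusted p = 0.0265) and by 0.22 (adjusted p = 0.0315) with the length trend removed, and part of its counts may belong to the antisense gene Gm45875 at its end (18.7 CPM beside 36.3 CPM). The other 8 K2P genes did not pass.

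The calcium channel pore genes were lower at night in 8 of 9 cases and 4 fell, among them the L-type genes Cacna1c and Cacna1d. The summed level of the class was 1247 ± 180 CPM in WT_night and 1017 ± 134 CPM in KO_night (SD, n = 5). Cacna1c (609 kb) was at 329, 322, 414, 239.7 and 280.0 CPM in WT_night 1 to 5 and at 249, 205, 189, 285 and 239 CPM in KO_night 1 to 5. The groups overlapped through WT_night 4 and 5 and KO_night 1 and 4. Its log2 change was -0.44 ± 0.118 (adjusted p = 0.0252), and -0.15 (adjusted p = 0.114) with the length trend removed. Cacna1d fell by 0.39 (adjusted p = 0.029), the R-type Cacna1e by 0.28 (adjusted p = 0.0256) and the N-type Cacna1b by 0.29 (adjusted p = 0.0473), and none of them passed with the trend removed. The T-type gene Cacna1i rose only in that second fit, with 0.22 (adjusted p = 0.0498) against 0.12 as tested.

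The auxiliary calcium channel genes divided by length as well. Cacna2d1 (440 kb) fell by 0.19 on the log2 scale (adjusted p = 0.0251) and stood at 0.05 with the length trend removed, and Cacnb2 (385 kb) fell by 0.37 (adjusted p = 0.0191) and stood at -0.13 (adjusted p = 0.0639). Cacna2d2 had a change of 0.10 as tested and rose by 0.23 (adjusted p = 0.0227) with the trend removed. Cacna2d4 rose by 0.18 ± 0.0583 (adjusted p = 0.0489), but shared its counts with the protein-coding gene Lrtm2 on the other strand, whose counts were 0.895 to 0.956 of its own in every library and which rose by 0.19 (adjusted p = 0.0487). The call for Cacna2d4 as tested was lost without any of 17 single libraries.

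The 7 sodium channel pore genes did not pass at night as tested with edgeR, with changes of -0.15 to 0.06 and 2 of them at an unadjusted p under 0.05. With the length trend removed Scn1a (Nav1.1) rose by 0.21 (adjusted p = 0.0133, 0.06 as tested) and Scn8a (Nav1.6) by 0.18 (adjusted p = 0.0306, 0.01 as tested). In CPM, Scn1a was at 204, 201, 219, 198 and 201 in WT_night 1 to 5 and at 202, 210, 221, 208 and 221 in KO_night 1 to 5, which overlap. In the Kv auxiliary class, Kcnip3 rose only in that fit too (0.14, adjusted p = 0.0414), and it and Scn8a are named here after their values were seen.

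All 4 sodium channel beta genes were higher in KO at night and 2 rose, with a class median of 0.21 as tested and 0.16 with the length trend removed. Their summed level was 306 ± 19.2 CPM in WT_night and 351 ± 20.4 CPM in KO_night, and 310 ± 7.16 and 299.5 ± 17.9 CPM by day (SD, n = 5). Scn2b was at 169, 170.1, 156, 185 and 174 CPM in WT_night 1 to 5 and at 189, 212, 215, 191 and 196 CPM in KO_night 1 to 5. Scn4b, the subunit linked to resurgent sodium current, was at 8.95, 9.48, 7.72, 8.18 and 6.78 CPM in WT_night 1 to 5 and at 10.5, 12.7, 12.0, 10.5 and 13.2 CPM in KO_night 1 to 5. In both genes every KO_night library lay above every WT_night library. Scn2b rose by 0.23 ± 0.0516 (adjusted p = 0.0152) and Scn4b by 0.51 ± 0.133 (adjusted p = 0.0227), and both passed with the trend removed (0.18 with adjusted p = 0.0217, and 0.47 with adjusted p = 0.0377). All 5 striatum markers were also higher in KO at night, with a median of 0.22 and none called. Their summed level was 27.4 to 33.0 CPM in WT_night and 27.8 to 45.6 CPM in KO_night. Between night and day in KO all 5 were higher as well, with a median of 0.38. The part of striatal RNA in the change of Scn4b was not tested.

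Scn2b lost its call without WT_night 3 (0.20, adjusted p = 0.0633) or KO_night 2 (0.21, adjusted p = 0.0523), and Scn4b without WT_night 1 or 3 or KO_night 2 or 3 (adjusted p up to 0.0797). Scn2b and Scn4b are neighbours on chromosome 9 (chr9:45117782-45130070 and chr9:45138395-45154152, GRCm38), on the same strand with starts 20.6 kb apart. The counts of Scn2b could not be told from those of Gm10684, a noncoding gene on the other strand that covers it, whose counts were 1.02 to 1.04 of its own.

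**Figure D4:**
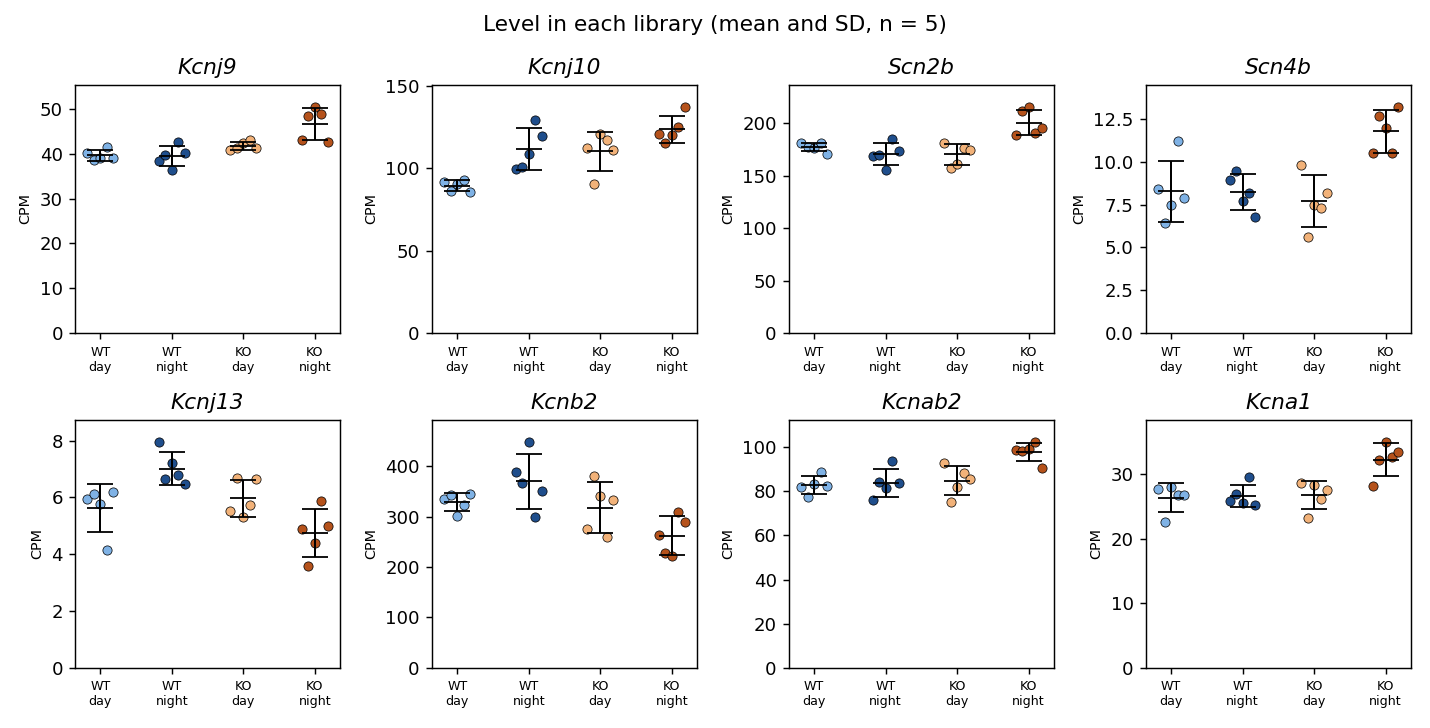
CPM in each library (points) for 8 channel genes by group, with mean and SD (n = 5) and a y axis from 0. Scn2b and Scn4b are higher in all 5 KO_night libraries than in all 5 WT_night libraries, and Kcnj13 is lower in all 5.

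Averaged over both times, the comparison asks which channel genes differ by genotype in the mean of day and night. It does not ask for a difference at each time. The averaged comparison shares its night libraries with the night comparison. Kcnj9 and Kcnj10 rose in KO and no channel gene fell, which is 2 of 109 genes where 1.32% of all genes passed. Both are inward rectifiers on chromosome 1, with divergent starts 11.9 kb apart (Kcnj9 at chr1:172320501-172329318 on the minus strand, Kcnj10 at chr1:172341210-172374085 on the plus strand, GRCm38). The median log2 change of the 109 genes was -0.01, and 53 were higher and 56 lower. Without WT_night 4 the averaged comparison called 16 of them and without KO_day 2 it called 13, whereas none passed without WT_day 2, WT_night 1, WT_night 3, KO_day 4 or KO_night 3. The share of all genes called in these fits is not given.

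Because these neighbours are transcribed away from each other and were both called, the 250 bases before their RefSeq starts are shown (GRCm38.p6, 5′ to 3′ on the strand of the gene, Kcnj9 at chr1:172329323-172329572 minus and Kcnj10 at chr1:172340960-172341209 plus). Capitals mark matches on either strand. The TATA box was searched as TATAAA. The GC box was searched as GGGCGG, and the third motif by its 5 letters CCAAT.

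Kcnj9: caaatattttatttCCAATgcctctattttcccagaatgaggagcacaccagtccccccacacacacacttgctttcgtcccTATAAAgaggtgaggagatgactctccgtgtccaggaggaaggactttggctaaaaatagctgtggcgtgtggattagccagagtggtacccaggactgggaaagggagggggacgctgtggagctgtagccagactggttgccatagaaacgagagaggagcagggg

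Kcnj10: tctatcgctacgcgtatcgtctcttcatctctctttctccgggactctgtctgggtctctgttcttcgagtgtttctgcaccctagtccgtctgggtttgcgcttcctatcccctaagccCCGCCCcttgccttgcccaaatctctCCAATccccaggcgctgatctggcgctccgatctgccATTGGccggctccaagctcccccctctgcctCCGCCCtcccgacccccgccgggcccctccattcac

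The window of Kcnj9 held 5 CG pairs, 1 CCAAT box and 1 TATA box, and that of Kcnj10 held 17 CG pairs, 2 CCAAT boxes and 2 GC boxes. Over 32817 such windows the median was 6 CG pairs, and 12.4% held a TATA box, 33.8% a CCAAT box and 32.7% a GC box. Neither window held the clock E-box CACGTG (6.02% of windows) or the cyclic AMP response element TGACGTCA (1.55%). The upstream windows of these neighbours thus differ in CG content and in motif letters, which is a description of the sequence and not of factor binding.

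Kcnj9 was at 40.2, 38.5, 39.1, 41.4 and 39.1 CPM in WT_day 1 to 5 and at 40.8, 41.2, 42.4, 43.1 and 41.2 CPM in KO_day 1 to 5, so that the groups overlapped by day through WT_day 4. Averaged over both times it rose by 0.16 ± 0.0344 (SE, adjusted p = 0.0293). The call was lost without any of 5 single libraries (WT_day 2, WT_night 1, WT_night 3, KO_day 4 or KO_night 3), with changes of 0.14 to 0.16 and adjusted p up to 0.0652. It was also lost with agreeing time labels (0.15, adjusted p = 0.164), with the second time label (0.16, adjusted p = 0.115) and without WT_night 1, 2 and 3 (0.13, adjusted p = 0.283).

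By day Kcnj10 was at 91.6, 86.1, 90.4, 92.6 and 85.3 CPM in WT_day 1 to 5 and at 112, 90.5, 121, 117 and 111 CPM in KO_day 1 to 5. At night it was at 99.5, 101, 109, 129 and 119 CPM in WT_night 1 to 5 and at 121, 115, 119.9, 125 and 137 CPM in KO_night 1 to 5. WT_day was low throughout, KO_day overlapped it only in KO_day 2, and the night groups overlapped. It rose by 0.23 ± 0.0512 (adjusted p = 0.0329), and the call was lost without any of 11 single libraries (WT_day 1, 2 or 5, WT_night 1, 2 or 3, KO_day 1, 3, 4 or 5, or KO_night 3), with adjusted p up to 0.0768. With only libraries of agreeing time labels it was 0.29 (adjusted p = 0.0258), with the second time label it was 0.19 (adjusted p = 0.142), and without WT_night 1, 2 and 3 it was 0.15 (adjusted p = 0.344). All 8 astrocyte markers and all 8 oligodendrocyte markers were also higher in KO, with median log2 changes of 0.08 and 0.15, and 0 and 1 of them passed. By day the summed astrocyte level was 2079 to 2244 CPM in WT and 2081 to 2333 CPM in KO, and at night 2074 to 2313 and 2156 to 2460 CPM, and the part of glial RNA in the change of Kcnj10 was not tested.

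With the length trend removed, 6 channel genes rose and 1 fell on average over both times, where 1.59% of all genes passed. Besides Kcnj9 and Kcnj10, Cacna1i (0.19, adjusted p = 0.0409), Cacna2d2 (0.19, adjusted p = 0.0136), Scn1a (0.13, adjusted p = 0.0334) and Scn8a (0.13, adjusted p = 0.0409) rose, and Kcnb2 fell by 0.15 (adjusted p = 0.0329). Cacna2d2 was by day at 59.6 ± 3.15 CPM in WT and 66.8 ± 4.02 CPM in KO, and at night at 64.1 ± 4.10 and 68.9 ± 4.18 CPM (SD, n = 5). None of the 109 genes passed in this fit without WT_night 1, 2 and 3 or with the second time label, 6 passed without WT_day 3 and 3 with agreeing labels only. How many of all genes passed with these choices is not given.

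By day no channel gene passed between KO and WT, where 0.113% of all genes passed. Of the 109 genes 13 had an unadjusted p under 0.05 (9.62% of all genes), and DESeq2 called 2 (1.03% of all genes). The smallest p-values of their classes belonged to Kcnj10 (0.30 ± 0.0725, adjusted p = 0.0926), the silent Kv gene Kcns2 (-0.27 ± 0.0728, adjusted p = 0.143), the pacemaker gene Hcn4 (0.26 ± 0.0788, adjusted p = 0.223) and the K2P gene Kcnk4 (-0.32 ± 0.105, adjusted p = 0.263). Across the 109 genes the change by day had a Spearman correlation of 0.06 with gene span, beside -0.70 at night.

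Between night and day in WT the question is whether channel levels follow the light cycle. As tested, 1 channel gene passed, where 0.275% of all genes passed, and none passed without WT_day 3. In that library Ndn and Magel2 lay below the other WT libraries and above the KO libraries. Kcnj10 passed in WT with the length trend removed (0.32, adjusted p = 0.0451), and as tested it had 0.32 ± 0.0726 (adjusted p = 0.0572). At night 81 of the 109 genes were higher in WT, with a median of 0.07 against 0.005 over all genes. The 42 channel genes of at least 100 kb were all higher. Among all genes with at least 1 CPM, 1626 of 1954 of 100 to 300 kb and 543 of 586 of at least 300 kb were higher too. The median of the 109 channel genes was 0.02 with the length trend removed.

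Between night and day in KO no channel gene passed as tested, where 0.0721% of all genes passed. Of the 109 genes 39 had an unadjusted p under 0.05 (17.7% of all genes), and DESeq2 called 9 (3.08% of all genes). Without KO_day 1 edgeR called 5, and without WT_night 3 or WT_night 4 it called 2 (shares of all genes not given). Scn2b (0.24 ± 0.0516) and Scn4b (0.61 ± 0.132) came nearest, both at an adjusted p of 0.0513. By day Scn2b was at 182, 158, 161, 176 and 175 CPM and Scn4b at 9.83, 5.63, 7.48, 7.30 and 8.19 CPM in KO_day 1 to 5. All KO_night libraries given above lay higher. With the length trend removed both rose, by 0.21 (adjusted p = 0.0355) and 0.59 (adjusted p = 0.0428), where 0.428% of all genes passed. In that fit neither passed with agreeing time labels (0.17 and 0.61, adjusted p = 0.208 and 0.145) or with the second time label (-0.04 and 0.02, adjusted p = 0.884 and 0.986), and Scn4b did not pass without WT_day 3 (0.59, adjusted p = 0.053). Kcna1 (0.27, adjusted p = 0.0819), Kcnab2 (0.21, adjusted p = 0.0906) and Kcnj9 (0.16, adjusted p = 0.111) were next in their classes and share the KO_night libraries with the night comparison.

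The interaction of genotype and time tests whether the change from day to night differs between KO and WT. No channel gene passed with edgeR as tested, as for all genes (0%). Of the 109 genes 39 had an unadjusted p under 0.05 (22.1% of all genes), and DESeq2 called 14 (6.99% of all genes). The edgeR test called 19 without WT_night 4, 14 without KO_night 4, 8 without KO_day 1 and 7 without KO_day 4. For these fits the share of all genes called is not given. The nearest were Kcnh5 (-0.40 ± 0.0978) and Scn2b (0.29 ± 0.0729), both at an adjusted p of 0.0591, Kcnj13 (-0.65 ± 0.164, adjusted p = 0.0602) and Kcns2 (0.40 ± 0.103, adjusted p = 0.0636).

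Genes linked to these channels were examined as a list of 35, of which 34 were tested. Besides genes for proteins that bind or traffic the channels, the list holds genes of the sodium leak channel. It also holds Cav gamma family genes, whose products are mostly partners of AMPA receptors. At night 2 rose and 8 fell in KO, with 12 higher and 22 lower and a median of -0.07, where 11.9% of all genes tested passed. Amigo1, a Kv2 partner (0.21, adjusted p = 0.0228), and Calm3, a calmodulin gene (0.20, adjusted p = 0.0256), rose. The sodium channel-binding factors Fgf12 and Fgf14 fell by 0.23 and 0.38 on the log2 scale (adjusted p = 0.0258 and 0.0241), as did the Kv4 partner Dpp6 by 0.32 (adjusted p = 0.0354) and the sodium channel anchor Ank3 by 0.27 (adjusted p = 0.0401). After the length trend was removed 2 rose, none fell and the median was 0.05, and none passed in the other comparisons as tested.

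At night 4 of 7 neuronal markers were higher and 1 rose, with a median of 0.05 as tested and 0.14 with the length trend removed, where 2 rose. Over all genes tested 11.9% passed at night, 14.4% of those with at least 1 CPM, and 5.3% of all with the length trend removed. All 8 oligodendrocyte markers were higher, 3 rose and the median was 0.20. Of the other lists, 11 of 12 hypothalamus markers were higher with 3 called (median 0.21), as were 8 of 8 astrocyte markers with 1 called (0.10) and 6 of 6 oligodendrocyte precursor markers with 1 called (0.13). All 5 striatum markers (0.22), 4 of 5 ependyma and tanycyte (0.16), 4 of 6 pituitary (0.13) and 2 of 3 thalamus markers (0.02) were higher. So were 3 of 5 cortex and hippocampus markers (0.20, 1 rose) and 5 of 6 microglia markers (0.10, 1 fell). Pericyte and smooth muscle markers were 3 higher and 3 lower (0.01). In the endothelium list 2 were higher and 4 lower (-0.04), and in the choroid plexus list 1 and 4 (-0.18). Summed oligodendrocyte levels were 2015 to 2490 CPM in WT_night and 2179 to 2928 CPM in KO_night. The part of these cell types and tissues in the channel changes was not tested.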

How the data were processed

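Raw counts for each gene were deposited, made by the authors with HISAT2 (mm10) and featureCounts according to the submitters' processing notes. Versions, annotation and strand setting are not given in the sources used here. Of the 53801 genes 53706 matched GENCODE M21 (GRCm38) by identifier, which gave symbols, spans and exon lengths. Checked on overlapping genes, the deposited counts are not separated by strand, and 13 of the channel genes overlap a gene with at least 50% of their level. Groups follow the titles, except for KO_day 5, which follows the second time label.

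Counts were tested with edgeR 4.0.16 (R 4.3.3): TMM factors of 0.945 to 1.08, filterByExpr with a minimum count of 10, 1 quasi-likelihood fit of 4 group means to 20 libraries, and Benjamini-Hochberg adjustment over 22181 genes, passing under 0.05. CPM use TMM-scaled totals. The length trend was a lowess curve (span 0.3) of counts on log2 gene span in each library, entered as an offset. DESeq2 1.42.0 was an alternative. Motifs were searched on both strands.

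Named are the genes called (at night the 15 of smallest p in each direction), the 2 of highest level per kb in each class, the smallest p of each class and comparison, and the nearest to the floor. The members and lists were chosen with earlier results of these data known. The scripts were tested on simulated data. Results for some channel genes were left out and are not reported here.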

Additional observations from a re-analysis of the deposited data

Results flagged for a closer look

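In each group of 5, the highest or lowest library of a named channel gene was set apart when its gap to the next library took up most of the range (Dixon's test at 95%). This held for 7 of 224 groups over 56 named genes, where chance gives about 1 in 20. Hcn3, an HCN subunit gene, was at 14 CPM in WT_day 1 beside 15.2 to 15.6 in the other WT_day libraries. Kcna1 was at 22.5 CPM in WT_day 2 beside 26.7 to 28.0. In KO_day 2 Kcna2 was at 110.0 CPM beside 128 to 134, and the sodium channel beta gene Scn3b was at 59.8 CPM beside 64.4 to 65.3. Kcnj13 was at 4.14 CPM in WT_day 4 beside 5.75 to 6.18. In WT_night 3 the long genes Kcnn3 and Scn1a were highest, at 66.8 CPM beside 52.0 to 54.7 and at 219 CPM beside 198 to 204.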

How the results depend on the processing

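Counts below are channel genes called, in the order averaged, day, night, WT night against day, KO night against day and interaction where all are given, and the cause of each change was not tested. Shares of all genes called are not set beside the counts of the alternative fits, except where given above. The counts were 2, 0, 34, 1, 0 and 0 as tested. They were 1, 0, 18, 1, 11 and 4 with library totals, 11, 2, 41, 3, 9 and 14 with DESeq2, and 5, 1, 34, 2, 1 and 1 without the count filter. The length trend removed gave 7, 0, 14, 1, 2 and 0. With only the groups compared the day, night and WT counts were 2, 8 and 3. With the time field in place of the title the counts were 0, 1, 0, 0, 0 and 0, with agreeing time labels 1, 1, 0, 2, 0 and 0, and without WT_night 1, 2 and 3 together 0, 0, 0, 1, 2 and 0. Added after seeing the data, the length trend removed was combined with other choices: without WT_night 1, 2 and 3 it gave 0, 1, 0, 1, 2 and 0, without WT_day 3 it gave 6, 0, 12, 0, 1 and 0, with agreeing labels 3, 1, 0, 4, 0 and 0, and with the time field 0, 3, 0, 0, 0 and 0.

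The median log2 change of WT night against day (0.07 as tested) became 0.018 with the length trend removed, 0.031 without WT_night 1, 2 and 3, and in the combined fits 0.019 without WT_day 3, 0.013 with agreeing labels and 0.014 with the time field. That of KO night against day became 0.072 with library totals and 0.089 with the length trend removed and agreeing labels. That of the interaction became -0.004 with library totals, 0.034 with the length trend removed, and in the combined fits 0.012 without WT_night 1, 2 and 3, 0.043 without WT_day 3 and 0.026 with agreeing labels.

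Some genes that fell at night stood at or above 0 once the length trend was removed: Cacna2d1 0.054, Kcnma1 0.012 and Kcnt2 0.00. Without WT_night 1, 2 and 3 as well, Cacna1b was at 0.003, Cacna1d 0.02, Kcnip1 0.071 and Kcnma1 0.058. Without WT_day 3 as well, Cacna2d1 was at 0.054 and Kcnma1 at 0.012. With agreeing labels as well, Cacna1e was at 0.002, Cacna2d1 0.024, Kcnip1 0.014, Kcnma1 0.009 and Kcnq5 0.03. With the time field as well, Cacna2d1 was at 0.021, Kcnd2 0.006, Kcnma1 0.004 and Kcnq5 0.022.

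Leaving out 1 library at a time gave 0 to 16 calls averaged (16 without WT_night 4), 0 to 1 by day, 2 to 46 at night, 0 to 3 in WT, 0 to 5 in KO and 0 to 19 for the interaction (19 without WT_night 4). The medians ran from -0.016 to 0.004, 0.004 to 0.035, -0.026 to 0.014, 0.041 to 0.104, 0.004 to 0.042 and -0.085 to -0.032. Same-numbered libraries did not deviate together: 30 pairs had correlations of -0.251 to 0.458 (median -0.0124), 7 of them over 0.1, and 4 of 20 libraries were closest to their own number. With the replicate block the counts were 2, 1, 19, 1, 0 and 0. A floor of 5 CPM would keep 92 of the genes.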
